A study of Mus musculus with 6 samples.

Results

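The genes described here are Acod1, the enzyme that makes itaconate, and 8 enzymes of the tricarboxylic acid (TCA) cycle and its side reactions that supply or use its substrate or are inhibited by its product: Aco1, Cs, Idh1, Idh2, Idh3a, Sdha, Sdhb and Ogdh. They were found by gene name among the 49315 Ensembl genes of the count table, and all 9 were present and passed the filter on low counts with 18234 genes. Acod1 was chosen by its log2 fold change, the strongest fall in the same comparison that is reported here, so its values are given as a description without a test. The other 8 were chosen for what they do.

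The measurements are RNA-seq read counts in bEND.3 cells, an immortalized mouse brain endothelial line, and no other line was used for these counts. In the GapmeR group (n = 4) the cells were transfected with an antisense LNA GapmeR against the long non-coding RNA Gm39822, and in the Negative Control group (n = 2) with a control GapmeR of no stated target. Both oligonucleotides were used at 100 nM with Lipofectamine 2000, a lipid carrier, in every sample. A GapmeR is a short oligonucleotide with a DNA core and modified ends that directs RNase H to cut the RNA it pairs with. The labels do not say whether the samples came from separate cultures, so the p-values measure the spread between these samples, which may be technical. The paper gives a single catalogue number for the targeting GapmeR. In this design, other effects of that oligonucleotide's sequence cannot be told apart from the loss of Gm39822. The question is how the transcripts of itaconate synthesis and of the cycle around it differed between the GapmeR and Negative Control samples.

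Acod1, also known as Irg1, decarboxylates cis-aconitate, an intermediate that aconitase forms between citrate and isocitrate. Its product, itaconate, resembles succinate and competes with it at succinate dehydrogenase, and it also modifies cysteines of several proteins. The gene is best known from macrophages, where interferons and Toll-like receptor ligands induce it. In the cycle itself, citrate synthase (Cs) makes the citrate, isocitrate dehydrogenases take isocitrate to 2-oxoglutarate, Ogdh oxidizes 2-oxoglutarate, and Sdha and Sdhb form the catalytic part of succinate dehydrogenase.

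The targeted RNA was low in every GapmeR sample. Gm39822 had 2, 1, 4 and 2 counts in GapmeR samples 1 to 4, against 61 and 56 counts in the controls. Its log2 fold change was -4.82 with a standard error of 0.41. Total counts were 30264086 to 37117934 in the GapmeR samples, against 29261988 and 34266811 in the controls, where 3 counts correspond to 0.0771 to 0.110 CPM (read counts scaled to a common library size). CPM values are scaled by edgeR's TMM factors throughout. With edgeR's quasi-likelihood test, 8268 of the 18234 genes tested had a Benjamini-Hochberg adjusted p-value under 0.05. That is 45.3% of them, with 25.4% higher and 20.0% lower in the GapmeR samples. The groups did not overlap in 59.2% of the genes. The median log2 fold change of all genes tested was 0.03. Scaled by library size only, this median was 0.17 and 74.1% of the called genes were higher, against 55.9% with TMM, so the direction of small changes depends on the scaling.

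The promoters of Acod1, Aco1, Idh2 and Sdha are shown first, because they set the sequence around the start of the gene that fell beside those of both enzymes that rose and of an enzyme that itaconate inhibits. They run from 250 bases before to 50 bases after the start in RefSeq's annotation of GRCm38.p6, the assembly of mm10, and are written 5′ to 3′ along the gene. Of the 9 genes, 8 matched a promoter, with 14 promoters in all. Idh3a had none. The motifs were chosen with the sequences in view, and matches on both strands were counted.
The Acod1 promoter lies at chr14:103046762-103047061 on the plus strand, and its capitals mark the NF-kB pattern GGNNNTTCC, at -85, and the TATA box pattern TATAAA, at -28. Positions are counted from the start, with bases before it negative.
Acod1: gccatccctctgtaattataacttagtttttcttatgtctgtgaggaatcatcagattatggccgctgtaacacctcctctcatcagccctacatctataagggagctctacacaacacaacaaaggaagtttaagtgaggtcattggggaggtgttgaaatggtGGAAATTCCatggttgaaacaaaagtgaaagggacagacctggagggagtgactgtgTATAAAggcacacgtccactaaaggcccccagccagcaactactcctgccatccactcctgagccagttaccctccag
The Aco1 promoter lies at chr4:40143015-40143314 on the plus strand, and its capitals mark 3 GC boxes (GGGCGG or its complement CCGCCC), at -222, -40 and -19.
Aco1: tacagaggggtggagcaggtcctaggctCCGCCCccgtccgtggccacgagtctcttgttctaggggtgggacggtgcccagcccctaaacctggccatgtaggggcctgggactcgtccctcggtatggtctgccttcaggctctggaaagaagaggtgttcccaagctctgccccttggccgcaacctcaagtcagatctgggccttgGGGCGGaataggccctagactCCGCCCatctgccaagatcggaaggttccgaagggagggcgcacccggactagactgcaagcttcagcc
The Idh2 promoter lies at chr7:80115301-80115600 on the minus strand, and its capitals mark a CCAAT box at -44 and GC boxes at -38 and -18. This window lies inside the gene's span of chr7:80094845-80118608, so its start is not the outer end of the gene.
Idh2: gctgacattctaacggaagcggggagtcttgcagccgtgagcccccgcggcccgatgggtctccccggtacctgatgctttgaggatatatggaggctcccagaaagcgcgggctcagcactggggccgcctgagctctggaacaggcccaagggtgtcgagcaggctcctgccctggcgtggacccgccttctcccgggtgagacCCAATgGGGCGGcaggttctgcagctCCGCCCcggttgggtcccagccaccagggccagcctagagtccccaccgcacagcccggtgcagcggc
The Sdha promoter lies at chr13:74350191-74350490 on the minus strand, and its capitals mark the NRF1 pattern (GCGCA, any base, GCGC) at -98, -55 and -10, and the CCAAT box read on the other strand at -185.
Sdha: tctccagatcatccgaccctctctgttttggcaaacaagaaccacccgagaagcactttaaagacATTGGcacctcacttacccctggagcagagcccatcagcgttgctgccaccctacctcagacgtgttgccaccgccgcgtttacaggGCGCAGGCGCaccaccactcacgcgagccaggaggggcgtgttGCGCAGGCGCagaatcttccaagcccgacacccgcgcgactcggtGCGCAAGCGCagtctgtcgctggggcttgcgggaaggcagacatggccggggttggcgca

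The Acod1 promoter differed from the other 3 in composition. It held 47.0% G and C and 2 CpG dinucleotides, against 63.0% and 14 in Aco1, 68.3% and 20 in Idh2 and 62.7% and 25 in Sdha. The medians over all 32851 promoters of this length were 52.7% and 7. The letters GGNNNTTCC occur in 18.5% of all promoters, TATAAA in 13.6%, the GC box in 35.7%, CCAAT in 37.4% and the NRF1 pattern in 4.60%. The Acod1 match, GGAAATTCC, is its own reverse complement and so was found on both strands at 1 place. The pattern is not particular to Acod1 among these genes. On either strand it also matched promoters of Cs (-215), Idh1 (-208, -158 and -146) and Sdhb (-160), which did not pass the test. GGAAGT or its complement also matched promoters of Cs, Sdhb and Ogdh. The Acod1 window also held GGAAGT, the core bound by ETS factors, at -125 (23.8% of all promoters), and the complement of CCAAT at -107. The interferon response pattern (GAAA, any 2 bases, GAAA, in 3.44% of all promoters), the gamma-activated site pattern TTCNNNGAA (8.30%) and the GC box had no match in it. Only exact letter matches in 1 window were counted, so a stretch that differs from a pattern by 1 letter was not found. They are no measurement of binding.

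Acod1 transcripts were far lower after knockdown. The gene lies at chr14:103047012-103056573 (mm10, plus strand, 5 exons). It had 966 and 1448 counts in the controls and 55, 49, 42 and 25 counts in GapmeR samples 1 to 4. In CPM these were 35.3 and 45.4 against 1.62, 1.26, 1.35 and 0.774. All 4 GapmeR samples were far below both controls, and GapmeR sample 4 was the lowest. The means were 40.3 ± 7.15 CPM (SD, n = 2) against 1.25 ± 0.354 CPM (SD, n = 4). The log2 fold change was -5.00 with a standard error of 0.17 (95% interval -5.37 to -4.64), which is 32.1-fold lower. In bulk RNA, fewer cells that express a gene and less RNA per cell cannot be told apart.

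By the criterion that chose it (called genes of at least 1 CPM whose groups did not overlap), Acod1 stood ahead of Crisp1 at -4.23 (standard error 0.16), Coch at -3.96 (0.13) and Krt16 at -3.94 (0.11) on the log2 scale. Gm39822 itself had a mean below this level. The 5 genes with the profile nearest to that of Acod1 were Crisp1, Krt16, Coch, Hopx and Ifi206. Nearness was the Euclidean distance between centred log2 values (CPM + 0.25) over the 6 samples, among 12771 genes, and the distances were 0.961, 1.12, 1.20, 1.52 and 1.52. Krt16, a keratin, had 48.0 and 55.0 CPM in the controls and 2.76 to 3.93 CPM in the GapmeR samples. Ifi206, an interferon-inducible gene of the Ifi200 family, had 22.0 and 26.9 CPM in the controls and 1.31 to 2.54 CPM in the GapmeR samples. With only 2 groups of samples, this measure mostly ranks genes by a fall of like size.

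Of the genes annotated near Acod1, Kctd12 and Mycbp2 passed the test, in opposite directions. Distances are from the GRCm39 annotation. Kctd12, 64.3 kb before Acod1, fell by 0.65 on the log2 scale (standard error 0.14, edgeR adjusted p = 0.00104). Mycbp2, a ubiquitin ligase gene 56.8 kb beyond Acod1, rose by 0.80 (standard error 0.08, edgeR adjusted p = 6.09e-07). The antisense lncRNA Gm41235 overlaps exons of Acod1 in the GENCODE annotation and has no row in the table, so reads of both could not be separated here.

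**Figure D1:**
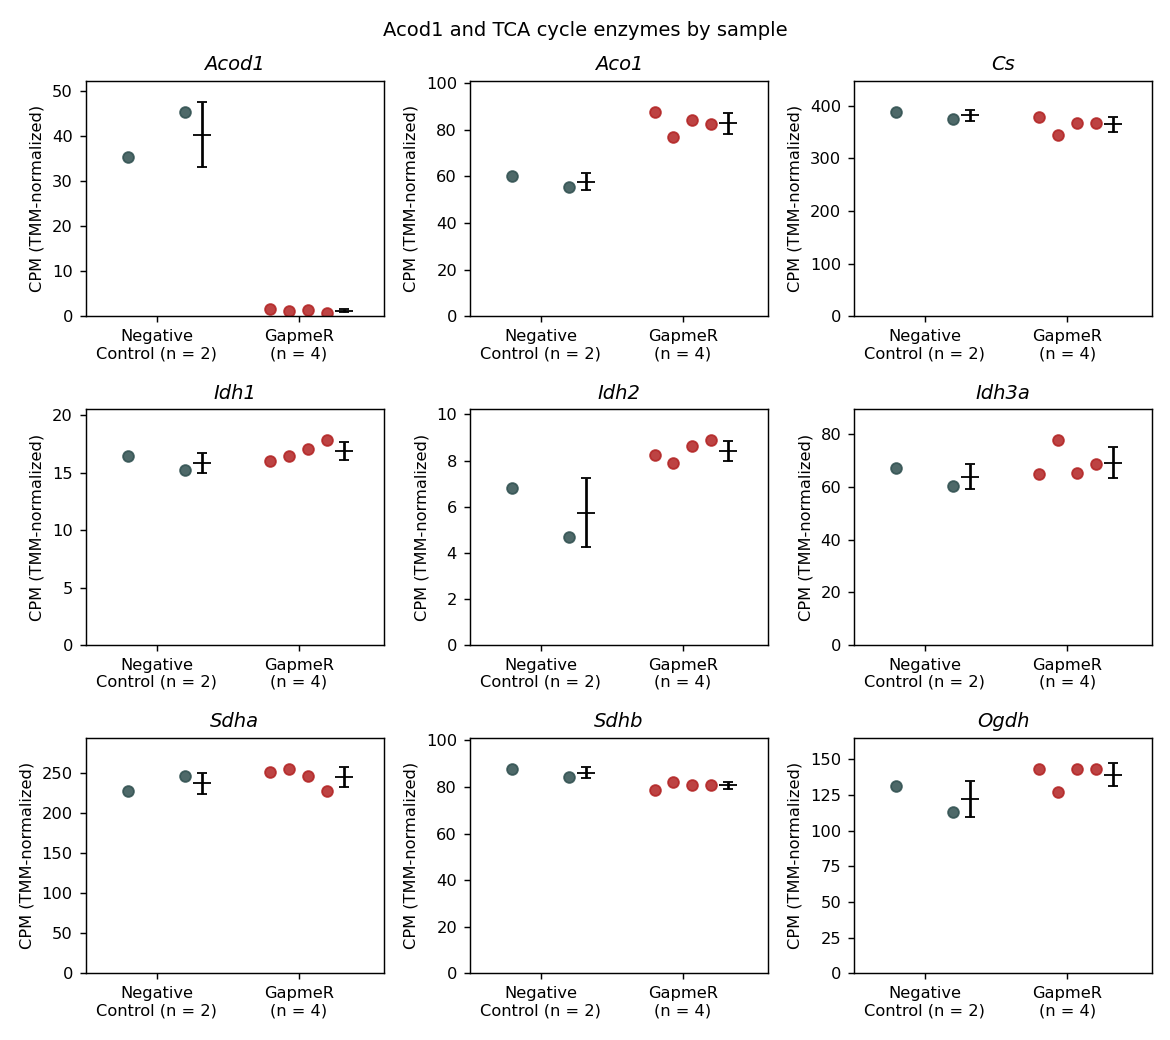
Each panel shows 1 gene, with points for the samples, the horizontal bar and whiskers for mean and SD, and CPM on an axis that starts at 0. Acod1 lies between 0.774 and 1.62 CPM in the GapmeR samples and at 35.3 and 45.4 CPM in the controls, Aco1 and Idh2 are higher in every GapmeR sample than in both controls, and in the other enzymes the groups overlap or, in Sdhb, lie close together.

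Of the 8 enzymes of the cycle and its side reactions, 2 rose, 0 fell and 6 did not pass the test. Over all genes, 45.3% passed it. The 2 that rose were Aco1, the cytosolic aconitase, and Idh2, the mitochondrial NADP-dependent enzyme. Cs, Idh1, Idh3a, Sdha, Sdhb and Ogdh did not pass. The median log2 fold change of the 8 was 0.10, against 0.03 over all genes. The groups did not overlap in 3 of the 8, against 59.2% of all genes. For a single gene, the exact permutation test of 4 samples against 2 cannot give a two-sided p below 0.0667, the value it gave for Aco1, Idh2 and Sdhb. When the samples were scaled by library size only, 5 of the 8 passed as higher, Idh3a (0.27), Sdha (0.20) and Ogdh (0.33) being added. A change of scaling shifts all genes by nearly the same amount, so changes relative to the median of all genes could hardly move. To within rounding they were 0.49 for Aco1, 0.54 for Idh2 and 0.16 for Ogdh under each scaling.

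On the substrate side, Cs makes the citrate from which cis-aconitate is formed, and its transcript was the most abundant of the 9 per length. The gene lies at chr10:128337727-128362482 (mm10, plus strand, 11 exons in the canonical transcript). It had 378, 345, 368 and 368 CPM in GapmeR samples 1 to 4, against 388 and 375 CPM in the controls. The groups overlapped, and GapmeR sample 2 was the lowest of the 6. Its log2 change was -0.07 with a standard error of 0.07 (95% interval -0.22 to 0.09, edgeR adjusted p = 0.481), and with library size only it was 0.08. Exons of Coq10a overlap those of Cs on the opposite strand, but Coq10a had 257 to 349 counts against 10640 to 13436 for Cs.

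Aco1 is the cytosolic aconitase. It interconverts citrate and isocitrate by way of cis-aconitate when it carries its iron-sulfur cluster, and without the cluster it acts as iron regulatory protein and binds RNA. The gene lies at chr4:40143265-40199009 (mm10, plus strand, 21 exons). Aco1 had 2969, 2989, 2603 and 2657 counts in GapmeR samples 1 to 4, against 1649 and 1763 counts in the controls. In CPM these were 87.6, 76.8, 83.9 and 82.2 against 60.2 and 55.2, so every GapmeR sample was above both controls. The means were 82.6 ± 4.51 CPM (SD, n = 4) against 57.7 ± 3.50 CPM (SD, n = 2). Aco1 rose by 0.52 on the log2 scale, or 1.43-fold, with a standard error of 0.08 (95% interval 0.35 to 0.68, edgeR adjusted p = 4.71e-05). It passed the test under all 14 alternatives, with log2 fold changes of 0.48 to 0.67.

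The 3 isocitrate dehydrogenase transcripts differed in whether they passed the test. Idh2, the mitochondrial NADP-dependent enzyme, had 280, 308, 268 and 287 counts in GapmeR samples 1 to 4, against 186 and 149 in the controls. In CPM these were 8.26, 7.91, 8.64 and 8.88 against 6.79 and 4.67. All GapmeR samples were higher than both controls, but the controls differed more from each other than the GapmeR samples did. Idh2 rose by 0.56 on the log2 scale, or 1.48-fold, with a standard error of 0.15 (95% interval 0.25 to 0.88, edgeR adjusted p = 0.00581). Without Negative Control sample 2 the log2 fold change was 0.33 (edgeR adjusted p = 0.149) and the call was lost, and without Negative Control sample 1 it was 0.87. Idh2 lies at chr7:80094845-80118608 (mm10, minus strand, 11 exons), where exons of Zfp710 overlap it on the opposite strand. Zfp710 had 1578 to 1741 counts in the GapmeR samples, against 2162 and 2779 in the controls, more than Idh2 itself and in the opposite direction. Whether the counting used strand is not given in the sources used here, so the level of Idh2 is uncertain.

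Idh1, the cytosolic NADP-dependent enzyme (chr1:65158616-65186479, mm10, minus strand, 9 exons), had 16.0, 16.5, 17.1 and 17.8 CPM in the GapmeR samples, against 16.4 and 15.2 CPM in the controls. The groups overlapped. Its log2 fold change was 0.09 with a standard error of 0.09 (95% interval -0.11 to 0.29, edgeR adjusted p = 0.448). The count ratio of Idh2 to Idh1 was 0.480 to 0.516 in the GapmeR samples, against 0.413 and 0.307 in the controls, so it did not overlap between groups. The difference of these ratios was not tested, and the groups did not overlap in 59.2% of single genes either.

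Idh3a, the catalytic subunit of the mitochondrial NAD-dependent enzyme (chr9:54586511-54604662, mm10, plus strand, 11 exons), had 64.8, 77.7, 65.3 and 68.8 CPM in GapmeR samples 1 to 4, against 67.1 and 60.4 CPM in the controls. GapmeR sample 2 was the highest, and 2 of the other 3 lay between the controls. The fold change was, on the log2 scale, 0.12 with a standard error of 0.08 (95% interval -0.06 to 0.30, edgeR adjusted p = 0.271). Exons of Acsbg1, with 209 to 297 counts, overlap those of Idh3a on the opposite strand, against 1838 to 3025 counts for Idh3a.

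Ogdh is the first subunit of the 2-oxoglutarate dehydrogenase complex (chr11:6291597-6359094, mm10, plus strand, 23 exons). It had 143, 127, 143 and 143 CPM in GapmeR samples 1 to 4, against 131 and 113 CPM in the controls. GapmeR sample 2 lay below Negative Control sample 1, and the other 3 were above both controls. This gave a log2 fold change of 0.19 with a standard error of 0.08 (95% interval 0.01 to 0.36, edgeR adjusted p = 0.0734). Without GapmeR sample 2 it was 0.23 (edgeR adjusted p = 0.00872), and without Negative Control sample 1 it was 0.31 (edgeR adjusted p = 0.0402). Without Negative Control sample 2 it was 0.11 (edgeR adjusted p = 0.496). With all samples and a filter of at least 10 counts in every sample it passed at 0.23 (edgeR adjusted p = 0.0315). Its paralog Ogdhl had 11 to 26 counts.

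The succinate dehydrogenase subunits, the enzyme that itaconate inhibits, did not pass the test in either direction. Sdha, the flavoprotein that binds succinate (chr13:74322255-74350240, mm10, minus strand, 15 exons), had 251, 255, 246 and 227 CPM in the GapmeR samples, against 228 and 246 CPM in the controls. The groups overlapped over most of their range. The log2 fold change was 0.05 with a standard error of 0.08 (95% interval -0.11 to 0.21, edgeR adjusted p = 0.634). Exons of Ccdc127 overlap those of Sdha on the opposite strand, with 913 to 1430 counts against 6232 to 9927 for Sdha.

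Sdhb, the iron-sulfur subunit (chr4:140961271-140979198, mm10, plus strand, 8 exons), had 78.8, 82.2, 80.9 and 81.0 CPM in the GapmeR samples, against 87.8 and 84.4 CPM in the controls. All GapmeR samples were lower than both controls, by a small margin. Its log2 change was -0.09 with a standard error of 0.07 (95% interval -0.24 to 0.05, edgeR adjusted p = 0.271), and it was 0.05 when the samples were scaled by library size only. The count ratio of Sdha to Sdhb was 2.80 to 3.19 in the GapmeR samples, against 2.59 and 2.91 in the controls, and these overlapped.

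Levels of different genes were compared per length, as CPM per kb of the canonical transcript. In the controls the order was Cs (129), Sdha (77.1), Idh3a (24.6), Sdhb (21.4), Ogdh (18.0), Acod1 (15.4), Aco1 (12.6), Idh1 (4.80) and Idh2 (3.28). Acod1 thus stood at rank 6 of 9 in the untargeted cells, at 13.4 and 17.3 CPM per kb in the 2 controls. Its range there overlapped that of Ogdh, at 16.6 and 19.3, and lay above that of Aco1, at 12.0 and 13.1. In the GapmeR samples Acod1 was last, at 0.477 ± 0.135 CPM per kb (SD, n = 4), behind Idh2 at 4.82 ± 0.244. The ranges of the neighbours Sdhb, Ogdh and Aco1 lay close together in the GapmeR samples, at 19.5 to 20.4, 18.6 to 21.1 and 16.7 to 19.1. With the length of all annotated exons in place of the canonical transcript, Acod1 stood at rank 3 of 9 in the controls and again last in the GapmeR samples.

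**Figure D2:**
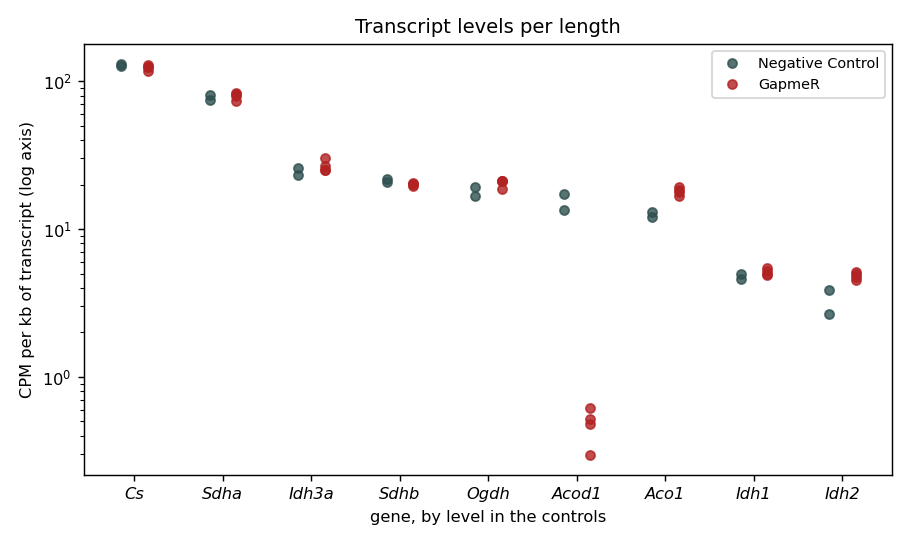
Points are samples, with CPM per kb of canonical transcript on a log axis and genes ordered by their mean level in the controls. Acod1 is at rank 6 in the controls (13.4 and 17.3) and below all other genes in the GapmeR samples (0.295 to 0.619), and the samples of each other gene lie within a far narrower span.

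Per length, Acod1 was above Aco1 in both controls and below it in every GapmeR sample. The count ratio of Aco1 to Acod1 was 1.71 and 1.22 in the controls and 54.0, 61.0, 62.0 and 106 in GapmeR samples 1 to 4. This ratio mostly follows the fall of Acod1 that chose it. The ratio of Aco1 to Cs, which does not involve Acod1, was 0.155 and 0.147 in the controls and 0.222 to 0.232 in the GapmeR samples. It did not overlap between the groups, as 59.2% of single genes did not. With Cs at a log2 change of -0.07, this ratio mostly follows the rise of Aco1.

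Of the 13 other TCA cycle enzymes, 1 rose, 4 fell and 8 did not pass the test, against 45.3% of all genes called. Their median log2 fold change was -0.11 against 0.03 over all genes, and with library size only it was 0.04, with 4 higher and 1 lower. Idh3g, a regulatory subunit of the enzyme that holds Idh3a, had 79.7, 76.6, 80.8 and 75.8 CPM in the GapmeR samples, against 115 and 100.3 CPM in the controls. It fell by 0.46 on the log2 scale (standard error 0.07, edgeR adjusted p = 9.09e-05), while Idh3a did not pass the test. Dld, the dihydrolipoyl dehydrogenase shared by the 2-oxoglutarate and pyruvate dehydrogenase complexes, fell by 0.23 (standard error 0.07, edgeR adjusted p = 0.0176), but it did not pass with library size only (-0.08), with at least 10 counts in every sample, with the replicate block, without GapmeR sample 3, without either control or in GapmeR samples 1 and 2 alone against both controls. Fh1, fumarate hydratase, rose by 0.32 (standard error 0.09, edgeR adjusted p = 0.00724), and without Negative Control sample 2 it had 0.23 (edgeR adjusted p = 0.145). The remaining calls were Mdh2 (-0.22, edgeR adjusted p = 0.0341) and Idh3b (-0.17, edgeR adjusted p = 0.0498), which lie near the threshold. The number of the 13 that passed was 3 without GapmeR sample 1, 8 without GapmeR sample 2, 2 without Negative Control sample 1 and 1 without Negative Control sample 2.

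**Figure D3:**
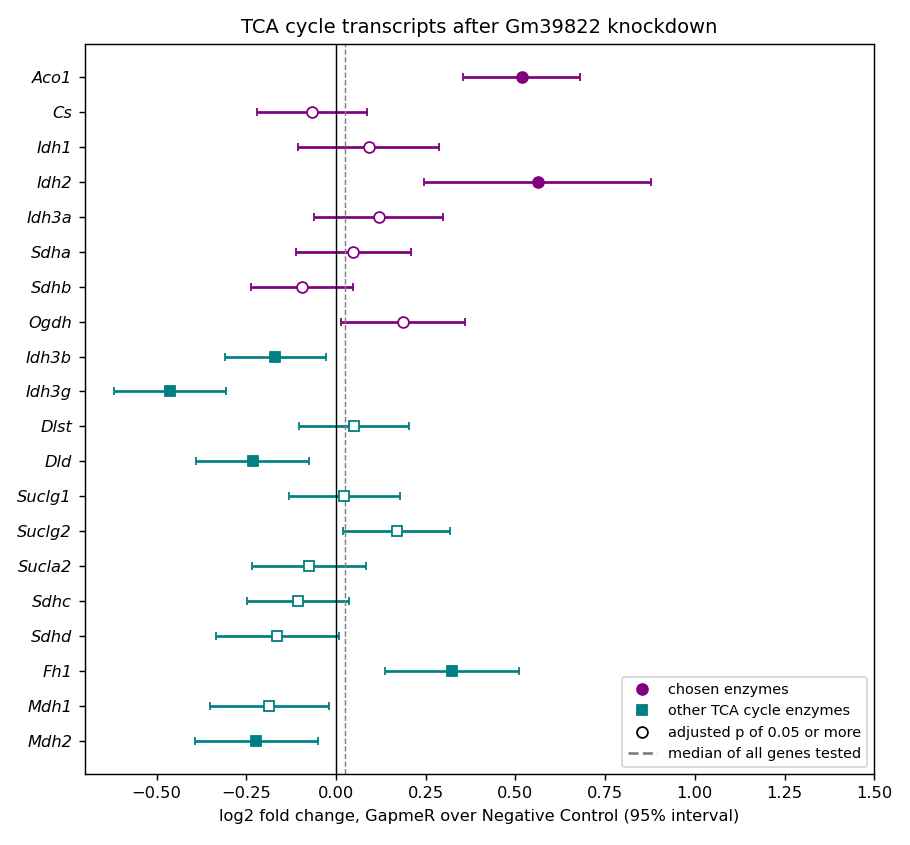
Log2 fold changes of GapmeR over Negative Control with 95% intervals for the 8 chosen enzymes (circles) and 12 of the 13 other TCA cycle enzymes (squares). Filled symbols had an edgeR adjusted p under 0.05 and the dashed line is the median of all genes tested (0.03). Aco1 (0.52) and Idh2 (0.56) lie to the right and Idh3g (-0.46) to the left of the others.

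Of 4 assembly factors of succinate dehydrogenase, 1 fell and 3 did not pass the test, where 45.3% of all genes passed, with a median log2 fold change of 0.14. Sdhaf2, which attaches the flavin cofactor to Sdha, had 49.2 to 55.9 CPM in the GapmeR samples, against 72.3 and 69.7 CPM in the controls. It fell by 0.46 on the log2 scale (standard error 0.07, edgeR adjusted p = 9.07e-05). With library size only, 1 of the 4 rose and 1 fell.

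Of 12 genes tested for the entry of pyruvate, 1 rose, 1 fell and 10 did not pass, where 45.3% of all genes passed, with a median of 0.04. Pcx, pyruvate carboxylase, which makes the oxaloacetate that Cs uses, rose by 0.65 on the log2 scale (standard error 0.12, edgeR adjusted p = 0.000438), from 7.52 CPM in both controls to 10.4 to 13.2 CPM. Pdp1, the phosphatase that activates pyruvate dehydrogenase, fell by 0.37 (standard error 0.08, edgeR adjusted p = 0.00149). Pdk4 had at most 2 counts in any sample and was not tested. With library size only, 6 of the 12 were higher.

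Of 7 tested carriers and enzymes of citrate and dicarboxylate use, 2 rose, 4 fell and 1 did not pass, where 25.4% of all genes rose and 20.0% fell, with a median of -0.30. Slc25a1, the mitochondrial citrate carrier, had 45.2 to 58.1 CPM in the GapmeR samples, against 76.3 and 71.4 CPM in the controls. It fell by 0.47 on the log2 scale (standard error 0.09, edgeR adjusted p = 0.000611). The malic enzymes Me1 (0.39, standard error 0.08, edgeR adjusted p = 0.000891) and Me2 (0.41, standard error 0.09, edgeR adjusted p = 0.0012) rose. Slc13a3, a dicarboxylate transporter of the cell surface that can carry itaconate, had 1, 0, 3 and 0 counts in the GapmeR samples, against 5 and 8 in the controls, so its fall rests on few reads. With library size only, 2 of the 7 were higher and 2 lower, and without Negative Control sample 1, 2 of 6 were higher and 1 lower.

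Of 8 genes for the entry of glutamine and aspartate, 1 rose, 1 fell and 6 did not pass, where 45.3% of all genes passed, with a median of 0.08. Slc25a12, the mitochondrial aspartate-glutamate carrier, rose by 0.27 on the log2 scale (standard error 0.07, edgeR adjusted p = 0.00592). Got1, the cytosolic aspartate aminotransferase, fell by 0.26 (standard error 0.08, edgeR adjusted p = 0.0166). Neither passed without Negative Control sample 2, and Got1 did not pass with library size only or without Negative Control sample 1.

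**Figure D4:**
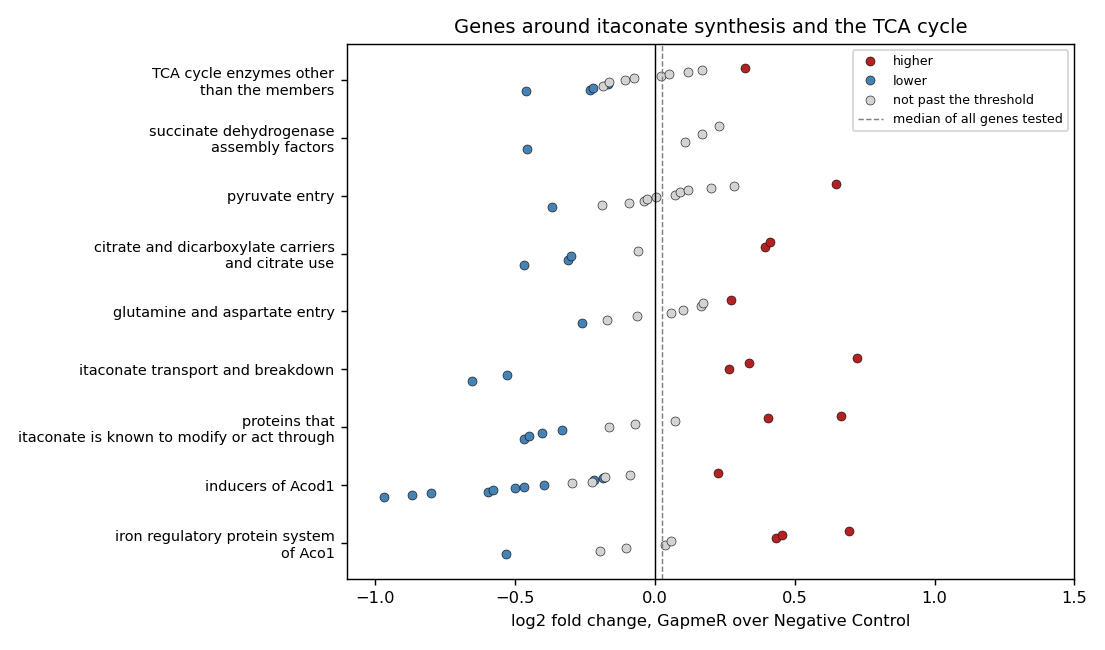
Each point is a gene with a mean of at least 1 CPM, placed by its log2 fold change of GapmeR over Negative Control and coloured by the edgeR call, with 1 row per gene list and the dashed line at the median of all genes tested (0.03). The inducers of Acod1 lie mostly to the left (10 of 15 lower, median -0.40), and the other lists have points on both sides.

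Genes known to induce or carry the signal for Acod1 were mostly lower. Of the 15, 1 rose, 10 fell and 4 did not pass the test, with a median log2 fold change of -0.40, where 20.0% of all genes fell. Irf1, an interferon-induced transcription factor that acts on the Acod1 gene, fell by 0.87 on the log2 scale (standard error 0.08, edgeR adjusted p = 4.12e-07), from 153 and 159 CPM to 73.5 to 91.8 CPM. Tlr3, the receptor for double-stranded RNA, fell by 0.80 (standard error 0.11, edgeR adjusted p = 0.00014), from 89.1 and 99.0 CPM to 47.5 to 65.3 CPM. The gene of this list that rose was Nfkb1, a subunit of NF-kB (0.22, edgeR adjusted p = 0.0146). With library size only 1 rose and 8 fell, without Negative Control sample 1, 0 rose and 8 fell, and without Negative Control sample 2, 0 rose and 7 fell.

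Of 5 tested genes linked to the transport or breakdown of itaconate, 3 rose and 2 fell. Over all genes, 25.4% rose and 20.0% fell. The median log2 fold change of the 5 was 0.27, and without Negative Control sample 1 it was 0.25. Those that rose were Clybl, Hps1 (0.27) and Hps4 (0.34). Clybl, citramalyl-CoA lyase, which takes the last step of itaconate breakdown, rose by 0.72 (standard error 0.25, edgeR adjusted p = 0.0254), from 1.53 and 1.00 CPM to 1.77 to 2.31 CPM. Its call was lost without Negative Control sample 2 (edgeR adjusted p = 0.279) and without GapmeR sample 4 (edgeR adjusted p = 0.0514). Auh, the hydratase that acts before it, fell by 0.53 (standard error 0.10, edgeR adjusted p = 0.000471). Rab32, a small GTPase that brings itaconate to vacuoles with bacteria, had 46.1 to 51.0 CPM in the GapmeR samples, against 78.7 and 71.7 CPM in the controls. It fell by 0.65 (standard error 0.07, edgeR adjusted p = 2.1e-06). Its relative Rab38 had at most 3 counts in any sample.

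Of 10 genes whose proteins itaconate modifies or acts through, 2 rose, 4 fell and 4 did not pass, where 45.3% of all genes passed, with a median log2 fold change of -0.12. With library size only, 3 rose and 3 fell, with a median of 0.03. Nfkbiz, which encodes I-kappa-B-zeta, rose by 0.67 (standard error 0.09, edgeR adjusted p = 1.81e-05). Tet2, a DNA dioxygenase, fell by 0.47 (standard error 0.11, edgeR adjusted p = 0.00188), and the glycolytic enzyme gene Aldoa fell by 0.45 (standard error 0.09, edgeR adjusted p = 0.000705).

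Because Aco1 is also an iron regulatory protein, the genes of that system were listed. Of 8, 3 rose, 1 fell and 4 did not pass the test, where 45.3% of all genes passed it, with a median log2 fold change of 0.05. Fth1 encodes the ferritin heavy chain, whose translation the protein represses, and RNA counts do not measure translation. Fth1 had 3760, 3377, 4117 and 3688 CPM in the GapmeR samples, against 2328 and 2294 CPM in the controls. It rose by 0.69 on the log2 scale (standard error 0.09, edgeR adjusted p = 1.33e-05). Epas1, another target, fell by 0.53 (standard error 0.07, edgeR adjusted p = 1.97e-05). Slc40a1, the iron exporter, rose by 0.46 (standard error 0.16, edgeR adjusted p = 0.0326), but it did not pass without GapmeR sample 4, without either control, with limma-voom, with the replicate block or in GapmeR samples 1 and 2 alone against the controls.

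The cells carried the markers of their label. All 12 endothelial markers were detected, and their summed level was 9170 to 10496 CPM in the GapmeR samples, against 10993 and 11443 CPM in the controls, with 2 higher and 7 lower, where 25.4% and 20.0% of all genes were. Acod1 is a macrophage gene as well, and macrophage markers were present in every sample. All 17 were detected, with a summed level of 241, 222, 392 and 422 CPM in GapmeR samples 1 to 4, against 189 and 183 CPM in the controls. Of these markers 3 passed as higher, 0 as lower and 14 did not pass, where 25.4% of all genes were higher, and their median log2 fold change was 1.09. With GapmeR samples 1 and 2 alone against both controls, 5 passed as higher and 1 as lower, with a median of 0.24. Csf1r, the receptor that defines this lineage, had 316, 288, 701 and 833 counts in the GapmeR samples, against 201 and 218 in the controls, and did not pass the test (log2 fold change 1.19, standard error 0.71, edgeR adjusted p = 0.251). None of the 17 was at 0 in any sample, the lowest being Aif1 with 2 to 10 counts. The part of such cells in the Acod1 values was not tested. Of 8 neutrophil markers, 5 had at most 3 counts in any sample, and their sum was 1.42 to 3.25 CPM in the GapmeR samples, against 0.803 and 1.00 CPM in the controls. Pericyte markers summed to 3.01 to 3.97 CPM against 0.940 and 1.31 CPM. Fibroblast markers summed to 18.0, 17.2, 92.0 and 22.9 CPM against 15.9 and 17.5 CPM, so GapmeR sample 3 stood apart. In a comparison added after seeing the data, GapmeR samples 1 and 2 alone against both controls gave a log2 fold change of -4.79 for Acod1, 0.53 for Aco1 and 0.53 for Idh2, and 2 of the 8 enzymes passed the test as before.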

How the data were processed

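Total RNA was ribodepleted before paired-end sequencing. Reads were trimmed and mapped by the authors with STAR on mm10, using Ensembl transcripts, within bcbio-nextgen. The submitters' processing notes list Trimmomatic 0.36, STAR 2.5.2b and Subread 1.5.2. The deposited values are raw read counts per gene. The Ensembl release and strand setting are not given in the sources used here. Samples were grouped by their titles. The study gives 4 samples per group, and 1 further per-sample column was not used.

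The filter kept genes that reached 5 counts in 2 or more samples, which were tested with edgeR 4.0.16 in R 4.3.3 (TMM, robust quasi-likelihood, Benjamini-Hochberg adjustment over all genes, threshold 0.05). The biological coefficient of variation was 8.42%. Functions were tested on simulated data. Alternatives used DESeq2 1.42.0, limma 3.58.1, other scalings and filters, a replicate block and single samples left out. Limits of 3 counts cover counting error only.

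The members and lists were chosen with earlier results of these data known. Named genes were the 9 members, up to 3 called genes of each list with the largest log2 fold change and a mean of at least 1 CPM, the 5 nearest profiles and the neighbours of Acod1. Nfkb1, Mdh2, Idh3b, Slc13a3, Pdk4, Rab38, Hps1, Hps4 and Csf1r were named after their values were seen. Some genes that this rule would name are not reported here. Transcript lengths, overlaps and distances came from GENCODE on GRCm39, and mm10 positions and promoters from RefSeq. Python 3.11.15 with scipy 1.17.1 and pandas 2.3.3 did the rest.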

Additional observations from a re-analysis of the deposited data

Results flagged for a closer look

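Ogdh in the GapmeR samples was the only gene of the 9 in which 1 of the 4 samples lay apart from the others. GapmeR sample 2 had 126.704 CPM, while the other 3 had 143 CPM each. By Dixon's test at the 95% level, chance marks about 1 in 20 such groups, and 9 were tested. GapmeR sample 2 also stood apart over the whole count table. Its counts differed from those of samples 1, 3 and 4 by a chi-square per degree of freedom of 21.3, 25.2 and 18.5. Between samples 1 and 3, 1 and 4, and 3 and 4 this value was 5.41, 10.7 and 9.74.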

How the results depend on the processing

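The log2 fold change of Acod1 stayed within -5.15 to -4.79 under all 14 alternatives, which is also its range with each sample left out. Of the 8 enzymes, 5 passed the test with library size only, and 1 to 3 with a sample left out, the 1 being Aco1 without Negative Control sample 2, where Idh2 was lost (0.33). Cs (0.0817) and Sdhb (0.0543) changed sign with library size only. The number of the 13 other TCA cycle enzymes that passed was 3 with at least 10 counts in every sample, 3 with GapmeR samples 1 and 2 alone against both controls, and 1 to 8 with a sample left out. Over all genes, 5232 to 8719 passed with a sample left out, the lowest without Negative Control sample 2. The cause of these shifts was not tested. The replicate block by the numbers in the titles rested on 4 samples. Their same-numbered deviations correlated at -0.114 and 0.180. With 2 controls, whose deviations mirror each other, these values cannot tell whether the numbers mark pairs. With the block, 7812 genes, 2 of the 8 enzymes and 3 of the 13 others passed, and the log2 fold change of Acod1 was -4.79. With 2 controls, the standard errors for the 8 enzymes were 0.07 to 0.15 on the log2 scale, which limits what could be detected.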
